A study of Mus musculus with 34 samples.

Results

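Histone H3 trimethylated at lysine 9 (H3K9me3) and acetylated at lysine 27 (H3K27ac) were mapped by chromatin immunoprecipitation and sequencing (ChIP-seq) in B6 5-1, a mouse embryonic stem cell line of strain and genotype C57BL/6J. Of the 34 samples of the series, 6 libraries, 3 per mark, were used to describe this line. The sample titles give them as its technical replicates. They were counted over a shared list of 248336 genomic regions. All 6 came from cells grown in 15% serum with LIF, the MEK inhibitor PD0325901 at 1 µM and the GSK3 inhibitor CHIR99021 at 3 µM, fixed in 1% formaldehyde for 10 min and digested with micrococcal nuclease. No input library was used. The other samples came from separate C57BL/6J lines, among them 1 further library of B6 5-1 per mark that was kept for comparison, from DBA/2J (D2) lines and from the reciprocal congenic lines B6-13D2 and D2-13B6. Because the replicates are technical and of 1 line, the p-values below measure the spread between libraries of that line, not between lines or animals.

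H3K9me3 is laid down by enzymes such as SETDB1 and SUV39H1, is bound by HP1 proteins, and marks silent chromatin over transposable elements, satellite repeats, some zinc finger gene clusters and part of the germline genes. H3K27ac is written by the acetyltransferases p300 and CBP and marks promoters and enhancers in use. The marks sit at opposite ends of the range of transcriptional activity and are usually found at different places. In embryonic stem cells H3K9me3 is known for silencing endogenous retroviruses and for marking the methylated allele of imprinted control regions.

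The list covered 186.8 Mb in regions of 93 to 15743 bp with a median of 547 bp. H3K9me3 libraries held 1904669 to 2012189 counts in these regions and H3K27ac libraries 8761231 to 9414852. Across regions, replicates correlated at r = 0.702 to 0.71 (log2 CPM) for H3K9me3 and at 0.911 to 0.915 for H3K27ac, a description over regions that share libraries and depth. H3K27ac replicates 1 and 2 differed by less than the sampling noise (chi-square per degree of freedom 0.967) and were summed as 1 sample, which left n = 2 for H3K27ac and n = 3 for H3K9me3. Levels are given as density, the count as CPM (scaled to a common library total by the column sum) per kb of region. An even spread of a library over the list gives 5.35 CPM per kb. A region was said to carry a mark where its density was at least 2 times that value, 10.7 CPM per kb, in every sample of the mark, with at least 10 counts over the mark's libraries. At that threshold a region of median width is expected to hold 11.5 counts in an H3K9me3 library, so that narrow regions near it were classified with a wide counting error.

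Most listed regions carried neither mark by this rule. H3K9me3 was carried by 21452 regions (8.64%), H3K27ac by 15563 (6.27%) and both by 3058 (1.23%). That left 18394 regions with H3K9me3 only, 12505 with H3K27ac only and 214379 (86.3%) with neither. The regions with both marks were 14.3% of those with H3K9me3, beside 6.27% of all regions with H3K27ac. They were 19.6% of those with H3K27ac, beside 8.64% of all regions with H3K9me3. The classes rest on a cut through a continuous range: 23993 regions had a mean H3K9me3 density between 1.5 and 2.5 times the even spread, and 13783 a mean H3K27ac density in that range. Across all regions the densities of the marks correlated weakly, with Pearson's r = -0.038 and Spearman's rho = -0.148. Both were taken on the log2 scale with a pseudocount of 0.5 CPM per kb, as a description over 248336 regions of the same libraries. The regions with H3K27ac only covered 23.0 Mb and took 41.5 to 43.8% of the H3K27ac counts, and the regions with H3K9me3 only covered 9.6 Mb and took 19.8 to 21.1% of the H3K9me3 counts. The regions with both marks covered 2.0 Mb and took 14.6 to 15.5% of the H3K9me3 counts and 6.21 to 6.23% of the H3K27ac counts. The regions with neither mark still took 57.8 to 59.5% of the H3K9me3 counts and 46.6 to 48.8% of the H3K27ac counts.

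**Figure D1:**
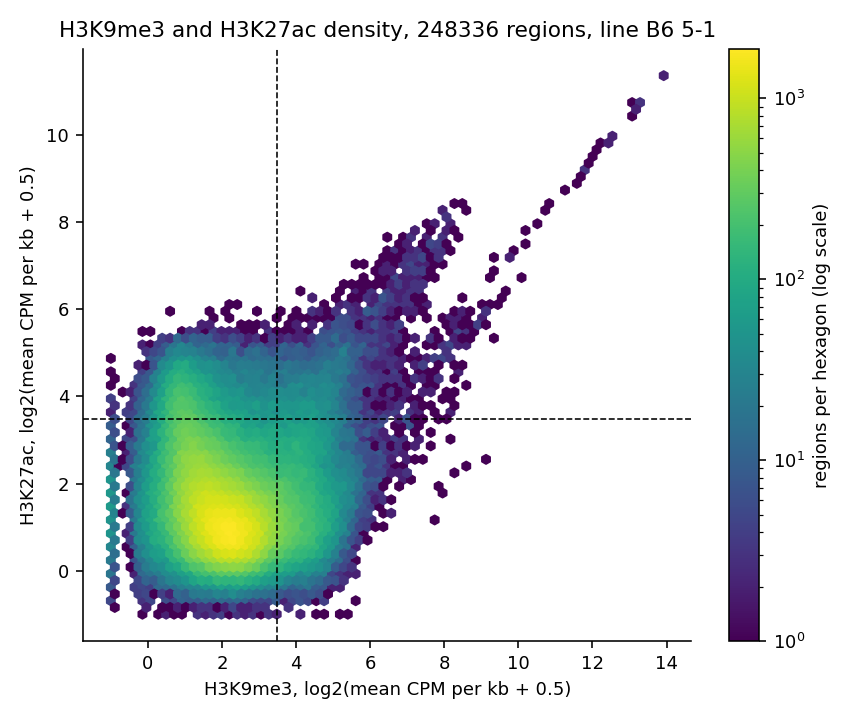
Mean H3K9me3 density (x axis) against mean H3K27ac density (y axis) of the 248336 regions in line B6 5-1, both as log2(CPM per kb + 0.5), with the number of regions per hexagon as colour on a log scale and dashed lines at 10.7 CPM per kb. Most regions lie in the lower left field, arms extend along each axis, and a thin diagonal tail holds the regions densest in both marks.

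The classes differed in place, width and repeat content. Regions with H3K27ac only were wide, with a median of 1606 bp, and lay close to genes: 35.6% were promoter regions, within 1 kb of a transcript start, against 15.4% of all regions. Regions with H3K9me3 only were narrow, with a median of 425 bp, 64.6% of them were intergenic, and their median distance to a transcript start was 16.7 kb against 4.55 kb for H3K27ac only. H3K27ac was carried by 13.6% of regions within 0.5 kb of a transcript start and 3.44% of those beyond 100 kb, and H3K9me3 by 3.0% and 16.4%. Repeat content, read as the soft-masked share of the reference sequence, had a median of 65.5% in regions with H3K9me3 only, 80.5% in regions with both marks, 22.6% with H3K27ac only and 13.9% with neither. Of the regions masked over less than 0.1 of their length, 2.95% carried H3K9me3, and of those masked over more than 0.75 of it, 45.3% did. Between the same bins H3K27ac went from 2.79 to 10.3% and both marks from 0.287 to 7.86%. Width moved with both marks: H3K9me3 was carried by 24.9% of regions up to 250 bp and 2.73% of those over 2000 bp. H3K27ac was carried by 8.76% of regions up to 250 bp, 1.95% of those in the next wider bin and 37.6% of those over 2000 bp. Both marks were most frequent in regions up to 250 bp, at 7.02%. The part of width and of read mapping in repeats in these differences was not tested. By chromosome, the share with H3K9me3 only ranged from 5.22% on chromosome 11 to 8.91% on chromosome 3 among the autosomes and was 24.3% of the 230 listed regions on Y. The share with both marks was highest among the autosomes on chromosome 4, at 2.98%.

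**Figure D2:**
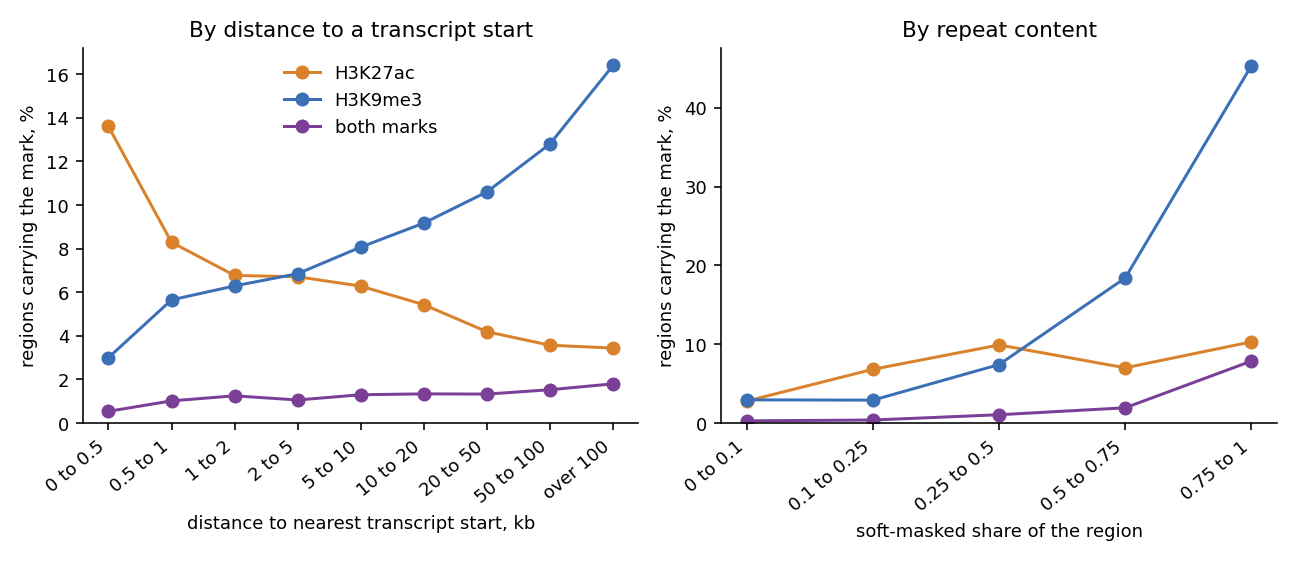
Percent of regions carrying H3K27ac, H3K9me3 or both marks, by distance to the nearest transcript start in kb (left) and by the soft-masked share of the region (right), line B6 5-1. With distance H3K27ac goes from 13.6% down to 3.44% and H3K9me3 from 3.0% up to 16.4%, and from the lowest to the highest bin of repeat content H3K9me3 goes from 2.95% to 45.3%, H3K27ac from 2.79% to 10.3% and both marks from 0.287% to 7.86%.

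In each class some regions held copies of the same short sequences. For each class, 3 sequences of 24 bases were picked on odd-numbered autosomes, each in turn as the one held by the most regions that held none picked before it. They came from the 4000 held by the most regions of the class, without low-complexity ones. Their shares were counted on the other chromosomes without 18 and Y, on either strand. The 6 picked for the classes with H3K9me3 are shown because they are sequences that dispersed regions of a class shared. Those picked for H3K9me3 only are lettered A to C and those picked for both marks D to F, with the octamer ATTTGCAT, a binding motif of POU factors such as OCT4, and the letters shared by B and E in capitals.
A: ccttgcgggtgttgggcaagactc
B: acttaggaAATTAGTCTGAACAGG
C: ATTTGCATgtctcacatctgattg
D: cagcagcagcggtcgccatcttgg
E: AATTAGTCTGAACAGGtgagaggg
F: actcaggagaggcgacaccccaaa
Sequence A lay in 9.05% of the 8021 counted regions with H3K9me3 only, in 0.188% of those with both marks, in 0.0185% of those with H3K27ac only and in 0.193% of those with neither. Of the 915 counted regions that held A, 79.7% carried H3K9me3 and 0.437% carried H3K27ac. Sequence C, which opens with the octamer, showed the same one-sided pattern at 2.74% of regions with H3K9me3 only and 0.0627% of regions with both. Sequence B was not one-sided, at 4.77% with H3K9me3 only, 18.2% with both, 1.13% with H3K27ac only and 0.402% with neither. Sequence D was the commonest in the regions with both marks, at 22.4% against 3.42% with H3K9me3 only, 0.961% with H3K27ac only and 0.234% with neither. Of its 907 holders, 69.6% carried H3K9me3 and 45.1% H3K27ac. At least 1 of A, B and C was in 16.5% of regions with H3K9me3 only and in 18.4% of regions with both, and at least 1 of D, E and F in 6.01% and 29.8%. B and E share 16 letters, and whether they lie in the same regions was not counted. The 3 sequences picked for H3K27ac only were in 8.94, 7.23 and 5.19% of the regions of that class and in 1.54, 1.17 and 1.06% of those with neither mark. Regions with H3K27ac only are the widest and so hold more sequence, and the part of width in these shares was not tested. No repeat annotation was used here, so these sequences were not assigned to a family. The octamer, counted also within copies of sequence C, was in the central 300 bp of 7.65% of regions with H3K9me3 only, 2.32% with H3K27ac only and 3.23% of all regions. The element TCAAGGTCA, bound by ESRRB, went the other way, at 0.886%, 2.78% and 1.37%. These are letter matches on either strand, not binding sites. The part of sequence C in the octamer shares was not tested.

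Each region's share of its library was compared between the marks with edgeR's quasi-likelihood test. Of 71532 regions with enough counts, 28766 (40.2%) had a higher share in the H3K27ac libraries and 36646 (51.2%) in the H3K9me3 libraries, at a Benjamini-Hochberg adjusted p under 0.05. For genes, the regions within 1 kb of any annotated start of the gene were summed into 1 promoter value. Of 21212 promoters tested, 12012 (56.6%) had the higher share in H3K27ac and 7254 (34.2%) in H3K9me3, with a median log2 difference, H3K27ac minus H3K9me3, of 1.07. That median belongs to the promoters that passed the low-count filter: it was 0.04 over all 29634 promoters with no filter, 0.45 with all 6 libraries separate and 0.36 to 0.42 without 1 of the H3K9me3 libraries (0.22 to 0.27 with the others kept separate). The difference compares shares of 2 libraries, and a gene can be higher in the H3K9me3 libraries without carrying the mark: of the regions with neither mark, 40623 were tested, and 16690 were higher in H3K27ac and 19108 in H3K9me3. Of the tested regions with both marks, 359 were higher in H3K27ac and 1519 in H3K9me3, with a median of -0.46. TMM scaling, an alternative that recentres the libraries, shifted the median of all tested regions by 0.62 and that of promoters by -0.7, so differences smaller than these depend on the scaling. The order of the regional counts turned too, to 32795 higher in H3K27ac and 31426 in H3K9me3 with TMM, and to 34839 and 17130 under a filter at a mean of 20 counts. With TMM the lean of the regions with both marks turned, to 1097 higher in H3K27ac and 645 in H3K9me3 with a median of 0.16, and so did that of the regions with neither, to 19725 and 15433.

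At promoters the active mark was the commoner one. Of the 55450 annotated genes, 29634 had a listed region at a start. H3K27ac was carried by 4811 of these promoters (16.2%), H3K9me3 by 1054 (3.56%) and both by 169 (0.57%). Gene types differed: H3K9me3 only was found at 1.11% of 17233 protein-coding promoters, 4.77% of 2789 lincRNA promoters and 9.7% of 2659 processed pseudogene promoters, while H3K27ac only was found at 18.7%, 10.9% and 5.75%.

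Most naive pluripotency regulators carried H3K27ac. Of 25 naive pluripotency regulators, 15 carried H3K27ac at the promoter, 10 carried neither mark, 0 carried H3K9me3, and 23 had a higher share in the H3K27ac libraries, beside 16.2%, 3.56% and 56.6% of all promoters. The count with H3K27ac was 23 at 1 time the even spread and 9 at 4 times, and with no division by width 22 carried H3K27ac and 6 H3K9me3. Their median H3K27ac density was 17.1 CPM per kb, in a range of 3.52 to 32.1, and their H3K9me3 densities lay between 0.922 and 4.01, under the even spread. Tdgf1, which encodes a NODAL co-receptor, had the densest H3K27ac of the list, at 30.9 CPM per kb in replicates 1 and 2 together and 33.3 in replicate 3, with H3K9me3 at 1.1, 0.928 and 1.13. Pou5f1, the gene of OCT4, had 27.9 and 28.7 CPM per kb of H3K27ac and 1.81, 1.55 and 1.5 of H3K9me3. The log2 differences were 4.92 (SE 0.17) at Tdgf1 and 4.12 (SE 0.13) at Pou5f1. Nanog, which encodes a homeodomain factor of the same network, stood at 26 and 28.1 CPM per kb of H3K27ac, and its H3K9me3, at 4.65, 3.22 and 3.95, was the nearest to the even spread among these examples. Zfp42, a marker of the naive state also called Rex1, had 26.1 and 27.7 CPM per kb of H3K27ac. Among the 17 genes of the list matched to a RefSeq promoter, it was the one with an octamer there. Its promoter (GRCm38.p6, chr8:43306960-43307259, minus strand) is shown with the motif in capitals.
Zfp42: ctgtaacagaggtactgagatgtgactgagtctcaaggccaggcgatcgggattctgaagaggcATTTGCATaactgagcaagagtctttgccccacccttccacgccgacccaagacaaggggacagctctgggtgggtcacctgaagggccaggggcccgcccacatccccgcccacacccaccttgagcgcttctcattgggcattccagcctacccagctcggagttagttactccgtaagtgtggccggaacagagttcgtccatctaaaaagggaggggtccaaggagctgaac
Members under the H3K27ac threshold included Klf4, which encodes a reprogramming factor, at 8.41 and 9.14 CPM per kb, Klf5 at 8.69 and 8.18, and Prdm14, a repressor gene of the naive network, at 6.21 and 6.6. Dppa3 and Lefty1 were the members without a called difference, at 4.58 and 4.24 CPM per kb of H3K27ac for Dppa3 and 3.45 and 3.58 for Lefty1. With TMM scaling both were called higher in H3K9me3, at log2 differences of -0.55 and -0.77 (edgeR adjusted p = 0.00145 and 0.000255). Promoters of early lineage regulators and fibroblast markers carried neither mark at the threshold used: of 20 lineage genes and 13 fibroblast genes with a region, 0 carried H3K27ac and 0 carried H3K9me3. H3K9me3 was carried by 8 lineage genes and 1 fibroblast gene at 1 time the even spread, and by 17 and 3 with no division by width. The highest H3K27ac density was 2.04 CPM per kb among the lineage genes and 3.84 among the fibroblast genes. All 20 lineage genes had a higher share in the H3K9me3 libraries, beside 34.2% of all promoters, at a median H3K9me3 density of 5.99 CPM per kb, close to the even spread. Pax6, a neural regulator, is an example, with 5.81, 7.09 and 7.19 CPM per kb of H3K9me3 and 1.03 and 0.856 of H3K27ac.

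**Figure D3:**
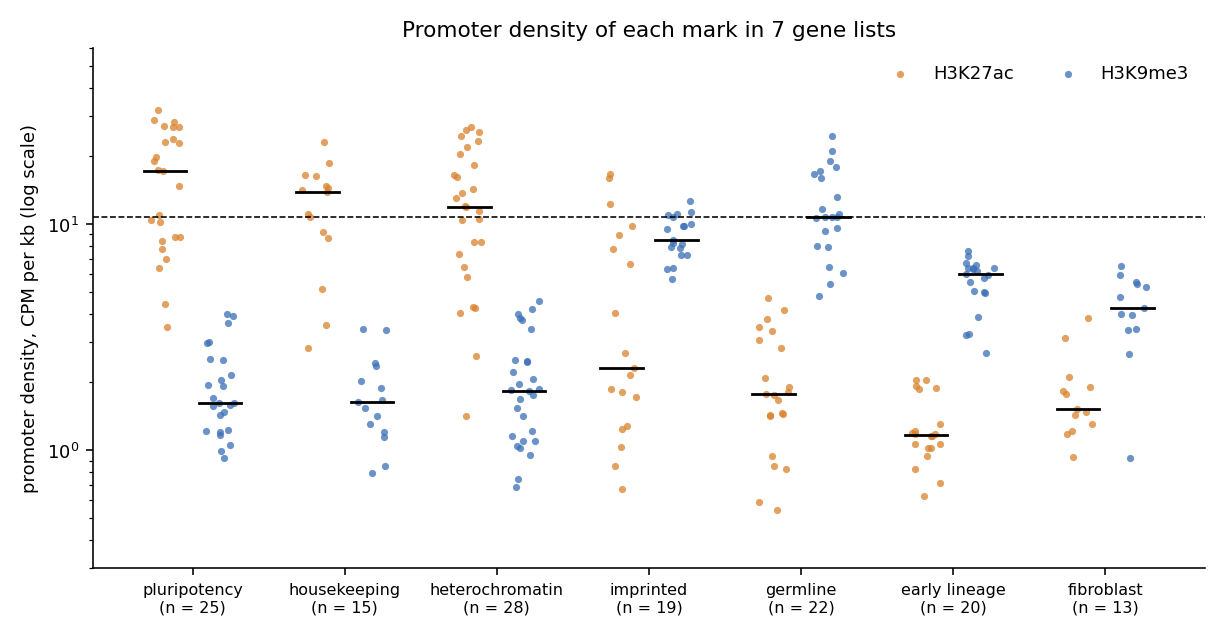
Mean promoter density of H3K27ac (orange) and H3K9me3 (blue) in CPM per kb on a log scale, 1 point per gene with a listed region, in 7 gene lists, with black bars at the medians and a dashed line at 10.7 CPM per kb. Pluripotency, housekeeping and heterochromatin genes have medians above the line for H3K27ac, and germline genes have the highest H3K9me3 median, at 10.8.

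Most genes of the lists used by most cells also carried H3K27ac. Of 79 cytosolic ribosomal protein genes, 66 carried H3K27ac, 0 carried H3K9me3 and 76 of 78 tested had the higher share in H3K27ac, beside 16.2, 3.56 and 56.6% of all promoters. Rpl10l, an intronless copy used in the male germline, was the member with the higher share in H3K9me3, at a mean of 11.2 CPM per kb of H3K9me3 and 8.35 of H3K27ac, and is named because of its values. Of 15 housekeeping genes, 9 carried H3K27ac. Histone cluster genes were similar, with H3K27ac at 59 of 67. The neighbours Hist1h2aa and Hist1h2ba, which encode testis histones and share 1 region at their starts (chr13:23933431-23935020), were the histone promoters with H3K9me3, at 13.1, 10.9 and 15.7 CPM per kb, and held 1.72 and 1.79 CPM per kb of H3K27ac. The heterochromatin list, which holds H3K9 methyltransferases, readers and demethylases and DNA methyltransferases, carried the active mark at 16 of 28 promoters (16.2% of all promoters). Of these genes 26 of 28 had the higher share in H3K27ac (56.6% of all promoters tested), of which Setdb1, Suv39h2 and Dnmt3l lost the call with TMM scaling. These H3K27ac counts rest on the threshold: at 4 times the even spread they were 4 of 79 ribosomal, 1 of 15 housekeeping, 4 of 67 histone and 5 of 28 heterochromatin genes. With no division by width, 18 ribosomal protein promoters carried H3K9me3. Cbx5, the gene of HP1 alpha, had 24.3 and 27 CPM per kb of H3K27ac and Zfp57, which encodes the factor that binds methylated imprinted regions, 26.5 and 27.1. Atf7ip, which encodes a partner of SETDB1, was the member with 1 promoter region that carried both marks. Setdb1 had 8.89 and 7.71 CPM per kb of H3K27ac, under the threshold. Dnmt3b, a de novo DNA methyltransferase, was the member with the higher share in H3K9me3, at 3.25, 5.53 and 2.78 CPM per kb of H3K9me3 and 1.49 and 1.33 of H3K27ac.

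The protein-coding promoters with the densest H3K27ac alone were those of Gm3448, Coil, Srp54c, 9030025P20Rik, Eif2s2, Zfp990, Arl14epl and Igll1. Eif2s2, which encodes a subunit of the translation initiation factor eIF2, held a region of 9473 bp (chr2:154891082-154900554) at 36.7 and 39.9 CPM per kb of H3K27ac and 3.25, 4.05 and 2.96 of H3K9me3. Igll1, the gene of a surrogate immunoglobulin light chain of pre-B cells, had 36.1 and 39.6 CPM per kb. Gm3448, Srp54c and 9030025P20Rik rested on single regions of 172 to 210 bp with 2 to 3 H3K9me3 counts in all, so that their H3K9me3 level was barely measured. Coil and Zfp990 each had 1 of their regions with H3K9me3 as well. Among regions with H3K27ac only outside promoters, the densest of at least 300 bp was intergenic, 1.72 kb from Ubd (chr17:37191784-37192176), at 65.1 and 71.4 CPM per kb, and a region in an intron of Vps54 (chr11:21257710-21258241) had 51.4 and 57.9.

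Among protein-coding promoters of the class H3K9me3 only, the densest belonged to a group of genes on chromosome 1. A530032D15Rik had 108.0, 110.0 and 110.0 CPM per kb of H3K9me3 at its start (chr1:85109152-85110586), and H3K27ac of 13.7 and 9.78 CPM per kb, which straddled the threshold. Sp110 and Sp140, which encode nuclear body proteins of the SP100 family, followed at 71.8 to 78.7 and 49.2 to 53.4 CPM per kb. Their log2 differences were -3.12 (SE 0.09) and -2.54 (SE 0.08). H3K27ac was 9.7 and 7.16 CPM per kb at Sp110 and 9.95 and 7.33 at Sp140. These values were under the threshold but above the median of 3.19 over all promoters. The spans of their promoter regions overlap (chr1:85584035-85601571 and chr1:85597304-85611016), so their values can share counts. At Sp110, 1 of the 4 promoter regions carried both marks. All of these lie in a stretch of chromosome 1 (chr1:84900291-85687033), where 101 of 155 regions carried both marks and 45 H3K9me3 only. That stretch took 1.46 to 1.54% of all H3K9me3 counts. The other 5 named promoters stood apart from it: Map3k19, a protein kinase gene, at 52.1, 41.3 and 61.1 CPM per kb, Kcnj5, an inward rectifier potassium channel gene, at 41.7, 41.7 and 53.5, Adamts13, which encodes the protease of von Willebrand factor, at 42.2, 30.4 and 57.1, 6030452D12Rik at 47.3, 39.3 and 36.4, and Gm3139 at 34.1, 42.8 and 43.8. At Gm3139 H3K27ac was 11.5 and 10.3 CPM per kb, on either side of the threshold. At Map3k19, Kcnj5, Adamts13 and 6030452D12Rik H3K27ac was between 0.776 and 5.29 CPM per kb. These promoters were picked by class and H3K9me3 density, so the gap between their marks follows in part from the choice. Outside promoters, the 4 densest regions of this class of at least 300 bp included chr6:47762827-47763149, at 254.0, 315.0 and 273.0 CPM per kb. Its H3K27ac, at 15.1 and 9.19 CPM per kb, straddled the threshold. The others lay near the start of chromosome 10 (chr10:3110086-3119904), where 7 of 8 regions were of this class. H3K9me3 there reached 379.0, 326.0 and 383.0 CPM per kb at chr10:3112743-3113100, against 5.66 and 3.83 of H3K27ac. Those bases are a short tandem repeat: shifted by 19 bp, the region matched itself at 87.3% of positions. Its first 300 bases (plus strand) are shown with the commonest word of 10 letters in capitals, which occurs 13 times.
chr10:3112743-3113042: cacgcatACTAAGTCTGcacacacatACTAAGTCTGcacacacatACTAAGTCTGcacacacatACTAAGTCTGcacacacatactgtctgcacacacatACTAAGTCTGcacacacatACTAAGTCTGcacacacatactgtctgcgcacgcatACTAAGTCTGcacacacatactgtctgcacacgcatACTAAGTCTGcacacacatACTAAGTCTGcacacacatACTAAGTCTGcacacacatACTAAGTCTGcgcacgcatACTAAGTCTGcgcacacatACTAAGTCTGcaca

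Part of the germline genes carried H3K9me3. Of 22 genes that act in meiosis, in the piRNA pathway or in sperm, 0 carried H3K27ac, against 16.2% of all promoters. H3K9me3 was carried by 8 at the summed promoter, against 3.56% of all promoters. In at least 1 promoter region 10 carried H3K9me3 (45.5%), against 4.54%. The median of the list, 10.8 CPM per kb, lay at the threshold, so the count moved with it: 19 of 22 carried H3K9me3 at 1 time the even spread, 0 at 4 times and 13 with no division by width. The edgeR test called 20 of 21 higher in H3K9me3, beside 34.2% of all promoters. Mov10l1, the RNA helicase gene of piRNA production, had 26.8, 19.5 and 27.5 CPM per kb of H3K9me3 and 1.11 and 0.77 of H3K27ac over its start (chr15:88982507-88983099). Ddx4, the gene of the germ cell helicase VASA, had 17.3, 12.6 and 21.7 CPM per kb (chr13:112651773-112652690). Slc25a31, which encodes the ADP/ATP carrier of sperm, had 18.7, 14.9 and 19.7 (chr3:40708411-40709395), and Sycp1, a gene of the synaptonemal complex, 15.6, 17.0 and 15.5 (chr3:102935311-102936298). Among these 4 genes the replicates spread most at Ddx4 and least at Sycp1. Their log2 differences ran from -4.59 (SE 0.34) at Mov10l1 to -3.17 (SE 0.27) at Sycp1. Mael and Tdrd1, both of the piRNA pathway, and the testis tubulin genes Tuba3a and Tuba3b completed the 8. Sycp3 and Tex101 had 1 marked region each, at 11.4, 14 and 14.3 and at 21.0, 13.1 and 22.6 CPM per kb, and were under the threshold once their other regions were added. Zpbp2 was the tested member without a call, at 3.48, 5.21 and 5.66 CPM per kb of H3K9me3 and 3.49 and 3.27 of H3K27ac.

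**Figure D4:**
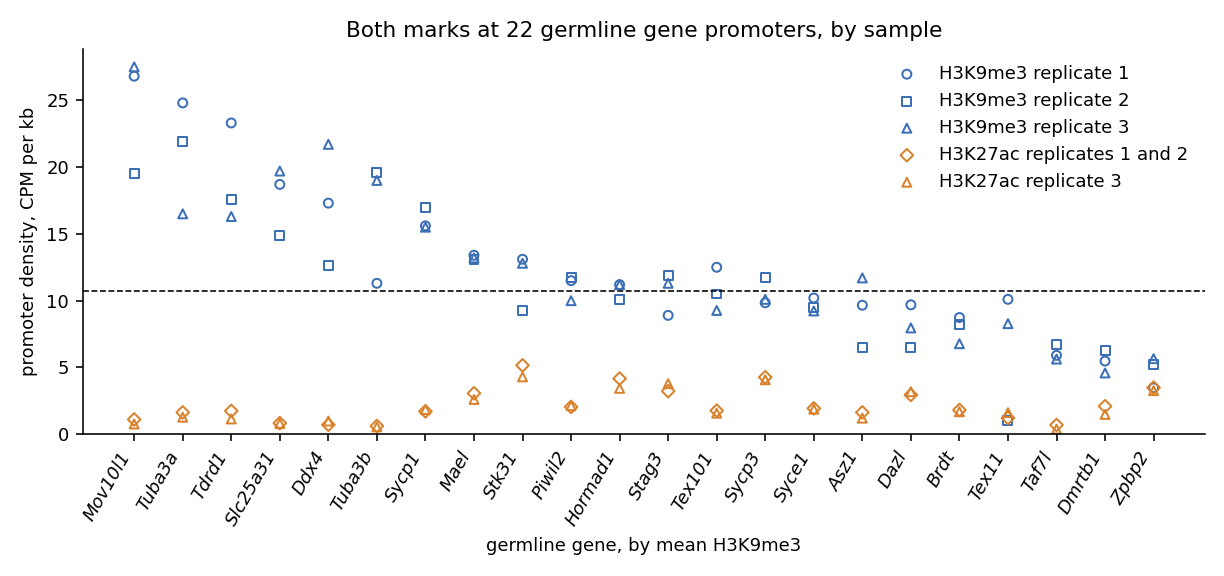
Promoter density in CPM per kb of the 22 germline genes, ordered by mean H3K9me3, with H3K9me3 replicates 1 to 3 in blue, H3K27ac (replicates 1 and 2 summed, and replicate 3) in orange and a dashed line at 10.7 CPM per kb. In the 8 genes at the left all 3 H3K9me3 samples lie above the line, and H3K27ac stays at or below 5.16 in every gene.

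The E-box CACGTG, the site of the germline gene repressor complex that contains MGA and MAX, was frequent in this list. Of the 25 RefSeq promoters of 20 matched germline genes, 15 (60%) held it within the 300 bases around the start, on either strand, against 7.15% of 32851 promoters. It did not go with H3K9me3 in general: 6.59% of promoters of the class H3K9me3 only and 10.7% of those with H3K27ac only held it. Within the list, it was in 6 of the 8 genes with H3K9me3 and in 6 of 12 matched genes with neither mark, whose H3K9me3 densities with an E-box ran from 6.07 to 11.7 CPM per kb. The first 4 promoters with the motif in capitals and 1 of the marked promoters without it are shown (RefSeq, GRCm38.p6, transcribed strand). They lie at chr15:88982744-88983043 (plus strand), chr13:112652261-112652560 (minus), chr3:40708621-40708920 (plus), chr3:102936051-102936350 (minus) and chr6:145615713-145616012 (plus), in the order given.
Mov10l1: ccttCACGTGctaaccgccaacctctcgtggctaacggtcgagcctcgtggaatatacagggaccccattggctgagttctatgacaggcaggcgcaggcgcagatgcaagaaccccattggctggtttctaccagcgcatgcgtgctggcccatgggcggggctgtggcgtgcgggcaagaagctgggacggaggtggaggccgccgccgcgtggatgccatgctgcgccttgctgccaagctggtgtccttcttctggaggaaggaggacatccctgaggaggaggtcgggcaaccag
Ddx4: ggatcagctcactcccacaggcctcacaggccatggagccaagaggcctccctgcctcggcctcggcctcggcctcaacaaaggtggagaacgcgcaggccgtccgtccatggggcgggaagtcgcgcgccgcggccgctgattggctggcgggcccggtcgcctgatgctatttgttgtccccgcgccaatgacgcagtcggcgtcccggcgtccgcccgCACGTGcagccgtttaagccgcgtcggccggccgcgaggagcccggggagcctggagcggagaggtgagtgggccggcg
Slc25a31: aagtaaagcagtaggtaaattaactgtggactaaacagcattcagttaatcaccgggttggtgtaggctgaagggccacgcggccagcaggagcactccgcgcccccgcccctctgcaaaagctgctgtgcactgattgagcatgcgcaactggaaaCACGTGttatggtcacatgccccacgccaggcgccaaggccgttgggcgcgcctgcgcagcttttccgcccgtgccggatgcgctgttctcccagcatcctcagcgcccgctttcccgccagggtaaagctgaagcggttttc
Sycp1: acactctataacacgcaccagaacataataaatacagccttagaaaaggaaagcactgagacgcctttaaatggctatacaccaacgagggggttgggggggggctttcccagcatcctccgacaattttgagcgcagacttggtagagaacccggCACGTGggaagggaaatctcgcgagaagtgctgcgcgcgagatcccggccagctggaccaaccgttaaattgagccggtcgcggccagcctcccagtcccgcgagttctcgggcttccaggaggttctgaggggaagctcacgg
Tuba3b: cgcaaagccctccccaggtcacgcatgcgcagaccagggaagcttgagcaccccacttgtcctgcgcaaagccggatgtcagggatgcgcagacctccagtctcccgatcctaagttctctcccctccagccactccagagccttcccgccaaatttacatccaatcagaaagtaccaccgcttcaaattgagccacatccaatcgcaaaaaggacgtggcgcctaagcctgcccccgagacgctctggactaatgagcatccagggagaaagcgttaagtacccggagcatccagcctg
The motif sits near the far end of the Mov10l1 window and nearer the start in the other 3, at almost the same place in Slc25a31 and Sycp1.

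Regions with both marks were few and repeat-rich. Of the 3058, 2704 lay outside the stretches on chromosomes 9 and 4 and a further one on chromosome 2, 101 of them in the stretch of chromosome 1 given above. The densest lay at the start of chromosome 9 (chr9:2999924-3099664), where 29 of 31 regions carried both, the median region was soft-masked over 95.0% of its length, and 6.76 to 7.39% of all H3K9me3 counts and 1.16 to 1.26% of all H3K27ac counts fell. At chr9:3006750-3007074 the density was 9280.0, 9040.0 and 8660.0 CPM per kb of H3K9me3 and 1570.0 and 1520.0 of H3K27ac. Of the 19 regions there of 400 bp or more, 13 matched themselves best at a shift within 6 bp of 234 bp, with a median identity of 82.1%, which is the unit length known for the major satellite of mouse pericentromeres. The first 300 bases of that region (plus strand) are shown with the commonest word of 10 letters, which occurs 4 times, in capitals.
chr9:3006750-3007049: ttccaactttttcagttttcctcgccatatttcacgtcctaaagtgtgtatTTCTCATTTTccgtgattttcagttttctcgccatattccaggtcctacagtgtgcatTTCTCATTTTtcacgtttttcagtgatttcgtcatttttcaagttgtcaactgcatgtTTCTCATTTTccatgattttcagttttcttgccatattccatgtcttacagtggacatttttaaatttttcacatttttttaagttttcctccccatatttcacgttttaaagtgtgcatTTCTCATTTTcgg
The 100 regions densest in each mark had 36 in common, and 97 of the 100 densest in H3K9me3 were of this class. The annotated genes there, among them Gm10719 and Gm17535, had the highest promoter densities of all named genes, at 7160.0 ± 326 and 4670.0 ± 330.0 CPM per kb of H3K9me3 (SD, n = 3). How reads that match many places were placed is not given in the sources used here, and neither the copy number of these repeats nor the input signal was measured, so their part in these densities was not tested. The counts of both marks also pool alleles and cells, so that marks on the same nucleosomes and marks in different cells or alleles cannot be told apart.

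Another concentration was a zinc finger gene cluster on chromosome 4. Over chr4:144506456-147999502, 322 of 553 regions carried both marks, which is 10.5% of all such regions. The median soft-masked share of all 553 regions was 22.2%, beside 15.7% over the whole list, and that of the 322 was not computed. The stretch took 1.24 to 1.42% of H3K9me3 counts and 1.23 to 1.26% of H3K27ac counts. Of 372 Zfp genes with a region, 13 carried both marks and 11 of these lay on chromosome 4, while 120 carried H3K27ac only and 3 H3K9me3 only. Of all promoters 0.57% carried both marks, 15.7% H3K27ac only and 2.99% H3K9me3 only. The Zfp counts moved with the threshold: 133 carried H3K27ac, 237 at 1 time the even spread and 27 at 4 times. H3K9me3 was carried by 16, and by 33 and 9 at these thresholds. With no division by width 231 carried H3K27ac and 35 H3K9me3. Zfp991 had 122.0, 125.0 and 131.0 CPM per kb of H3K9me3 and 128.0 and 130.0 of H3K27ac, and Zfp600 had 102.0, 80.3 and 81.3 and 86.4 and 94.3. At both genes the densities of the marks overlapped or nearly so, with a log2 difference of 0.03 that passed no threshold. With TMM scaling it turned to -0.66 and -0.67, and both genes were then called higher in H3K9me3 (edgeR adjusted p = 3.17e-08 and 3.36e-10). Rex2, in the same cluster, had 62.1, 73.1 and 45.3 CPM per kb of H3K9me3 and 79.6 and 76.9 of H3K27ac. Zfp980 leaned to H3K27ac, with a mean of 71.1 CPM per kb against 24.8 of H3K9me3, and Zfp986 to H3K9me3, with 114.0 against 68.3. Elsewhere, C130026I21Rik on chromosome 1 (261.0, 252.0 and 241.0 CPM per kb of H3K9me3 and 33.7 and 24.2 of H3K27ac), AW822073 on chromosome 10 (255.0, 246.0 and 236.0 and 33.2 and 29.0) and Sfi1, a centrin-binding protein gene on chromosome 11 (93.1, 91.7 and 89.3 and 25.2 and 23.8), had both marks with H3K9me3 the denser. Duxf3, a gene of the Dux array near AW822073, had 142.0, 150.0 and 147.0 CPM per kb of H3K9me3 and 18.3 and 17.9 of H3K27ac. It was the single member of the cleavage-stage families with both marks, of 9 of 28 genes that had a region. For these genes and the stretches on chromosomes 1 and 4, the placement of reads that match many places is likewise not given. Copy number and input were not measured there either, so their part in the densities of both marks was not tested.

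Imprinted genes at germline methylated regions lay between the classes. Of 19 genes, 5 had a promoter region with H3K9me3 and 5 others a region with H3K27ac, and 0 had a region that carried both. Of the 29634 promoters, 1344 (4.54%) had a region with H3K9me3, 5629 one with H3K27ac and 216 one with both. The list's count with H3K9me3 at the summed promoter, 2, became 18 at 1 time the even spread, 0 at 4 times and 15 with no division by width. Nnat, an imprinted gene of neuronal development, had 12.2, 14.4 and 12.2 CPM per kb of H3K9me3 at chr2:157559272-157560697 and 1.34 and 1.36 of H3K27ac. Grb10, an adaptor of growth factor receptors, had 13.6, 12.3 and 12.7 at chr11:12025223-12027227 with 0.437 and 0.285 of H3K27ac, and Inpp5f, Meg3 and Peg13 had regions of the same class. At the H3K27ac regions the other mark was present under the threshold but above the even spread. Snrpn, a gene of the Prader-Willi region, had 11.1 and 11.6 CPM per kb of H3K27ac and 8.54, 6.13 and 6.48 of H3K9me3 at chr7:60002551-60005461. Zrsr1 had 12.2 and 12.4 with 8.47, 10.2 and 6.83, and Mcts2 16 and 17.4 with 8.56, 9.31 and 5.59. At the promoters of Snrpn and Zrsr1 the log2 differences of 0.4 (SE 0.12) and 0.53 (SE 0.15) turned to -0.29 and -0.17 with TMM scaling. The median H3K9me3 density of the list, 8.51 CPM per kb, compares with 2.87 over all promoters. The hexamer TGCCGC, the core of the ZFP57 site, was in 9 of the list's 24 RefSeq promoters (37.5%) on either strand, against 11.6% of all promoters. Those 24 promoters belong to 14 matched genes of the 19, and Grb10, Mcts2, Meg3, Mest, Nap1l5, Nnat, Plagl1 and Snrpn held the hexamer. By class it was in 19.6% of promoters with H3K27ac only, 8.06% with H3K9me3 only and 15.5% with neither, and in the naive pluripotency list in 23.8%.

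Large gene families that are silent in most cells mostly carried neither mark, and most olfactory and vomeronasal receptor genes had no listed region. Of 1093 olfactory receptor genes, 958 had no region at a start, and of the other 135, 6 carried H3K9me3 and 1 carried H3K27ac. Olfr1428 was the densest in H3K9me3 of these, at 27.4, 29.0 and 18.8 CPM per kb, and Olfr94 the one with H3K27ac, at a mean of 32.1. Of 327 vomeronasal receptor genes, 19 had a region, of which 2 carried H3K27ac and 0 H3K9me3. Of 38 Hox genes with a region, 37 carried neither mark and 34 of 37 tested had the higher share in H3K9me3, beside 80.8% and 34.2% of all promoters. At 1 time the even spread 17 of the 38 carried H3K9me3. Hoxb1 was the exception with H3K9me3, at 11.4, 11.1 and 12 CPM per kb, just over the threshold. Clustered protocadherins carried H3K9me3 at 4 of 49 promoters and H3K27ac at 0, and Pcdha8, of the alpha cluster, had 30.5, 22.9 and 25.5 CPM per kb. At 1 time the even spread H3K9me3 was carried by 20 of these 49 promoters and by 29 of the 135 olfactory receptor genes, and at 4 times by 1 and 0. Of all promoters, 3.56% carried H3K9me3 and 16.2% H3K27ac.

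The same regions were then read in libraries that the classes did not use. Of the 21452 regions with H3K9me3 in the B6 5-1 libraries, 80.1 to 83.4% reached the threshold in each of the 3 separate B6 lines, of which the third is a further library of B6 5-1 itself, against 6.81 to 7.44% of all other regions. In the congenic B6-13D2 line the share was 89.7 to 91.2%, in the D2 line of the repeated libraries 66.8 to 72.8%, in the separate D2 lines 75.3 to 78.6% and in D2-13B6 54.6 to 72.0%. H3K27ac regions reached the threshold in 81.5 to 83.7% of cases in B6-13D2, 68.9 to 70.1% in D2 and 72.9 to 73.4% in D2-13B6, against 1.5 to 3.18% of other regions. In the repeated libraries of D2 and D2-13B6, 73.2 to 83.6% of the regions with both marks and 51.5 to 71.0% of those with H3K9me3 only reached the H3K9me3 threshold. H3K27ac of the separate lines was counted over a list of its own with another antibody (abcam in place of Cell Signaling Technology), of 96988 regions. That list covered 99.6% of the regions with H3K27ac only, 88.7% of those with both marks, 24.6% with H3K9me3 only and 38.0% with neither. These shares were not tested for differences between lines.

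**Figure D5:**
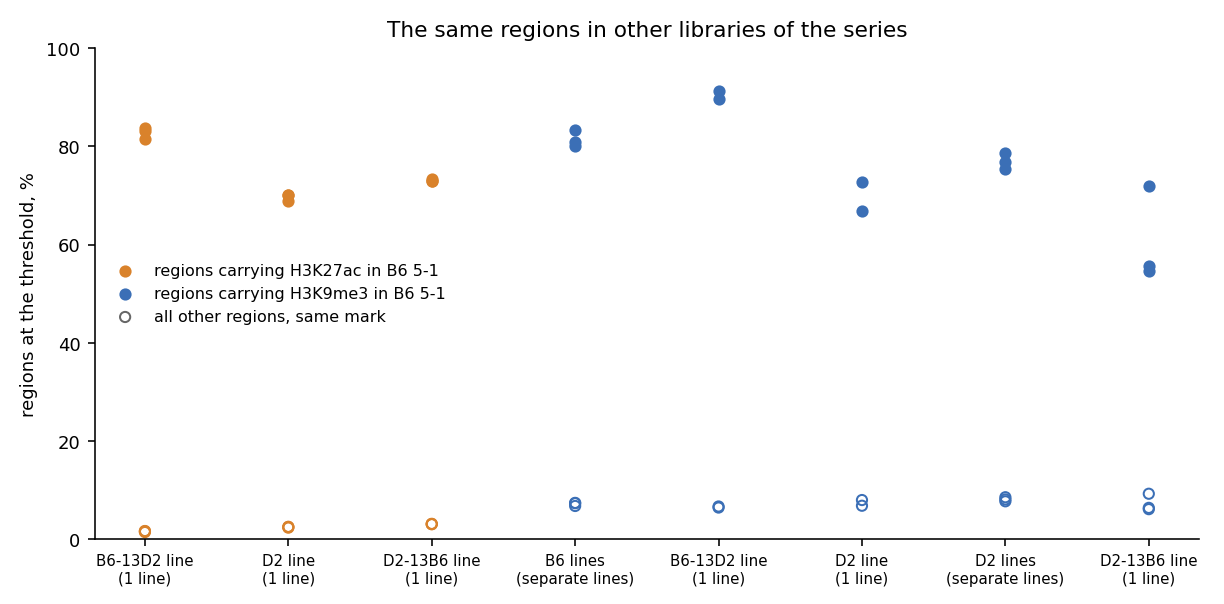
Percent of regions that reached 10.7 CPM per kb of the same mark in each of the 22 further libraries counted over the same list, for regions carrying H3K27ac (orange) or H3K9me3 (blue) in B6 5-1 (filled) and for all other regions (open), 1 point per library. Filled points lie between 54.6 and 91.2% and open points below 10%.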

How the data were processed

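The deposited tables hold raw counts of reads per region, with duplicates removed per the file headers. The submitters' processing notes name Trimmomatic 0.39, HISAT2 2.2.1, MACS 1.4.2, bedtools 2.9.2 and edgeR with build mm10. How the region list was made and how reads matching many places were counted is not given in the sources used here. The header columns were joined to samples by library name, and 2 columns that matched no sample were not used. Starts were read as counted from 0. No region passed a chromosome end of RefSeq GRCm38.p6, which gave the sequence and soft-masking, and genes came from GENCODE M21.

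Libraries were scaled by their column totals. Contrasts of the marks were fitted with edgeR 4.0.16 in R 4.3.3 (glmQLFTest, two-sided, filterByExpr at its defaults, Benjamini-Hochberg adjustment), after the fit was tested on simulated data. DESeq2 1.42.0, TMM factors, other filters, thresholds, windows and left-out libraries were alternatives. Named genes are the members of the lists and, per class, the 8 densest protein-coding promoters (at most 2 of a family) and the 4 densest regions of at least 300 bp outside promoters. The lists, the motifs and the classes were chosen with earlier results of these data known. The 24-base and tandem repeats were added after the classes were seen.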

Additional observations from a re-analysis of the deposited data

How the results depend on the processing

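The counts of regions and promoters carrying a mark depend on the threshold. At 1 time the even spread, 50952 regions carried H3K9me3, 38741 H3K27ac and 9450 both, and 3959, 10242 and 648 promoters did. At 4 times it, the numbers were 6139, 3712 and 940 regions and 284, 617 and 73 promoters. With no division by width, 15597 regions carried H3K9me3 and 24277 H3K27ac, which turned the order of the marks, and 3049, 10008 and 964 promoters carried H3K9me3, H3K27ac and both. A promoter rule by any of its regions, added after the data were seen, gave 256 promoters with both marks. The other count minimums, the promoter windows, the read length added to the width (also added later) and the libraries kept separate left these counts within 1.5 times. Leaving out 1 library, with H3K27ac replicates 1 and 2 still summed where both were kept, gave 21452 to 24966 regions with H3K9me3, 15207 to 16517 with H3K27ac and 3015 to 3300 with both, and 1054 to 1253, 4711 to 4941 and 165 to 184 promoters.

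In the contrast of the marks, the number of regions higher in H3K9me3 was 108127 with no filter on low counts, 17130 under a filter at a mean of 20 counts and 72428 with all 6 libraries separate. These settings tested 248336, 64944 and 141960 regions in place of 71532. Without 1 library and with the others kept separate, it ran from 36426 to 87322. The high values, 87015, 87322 and 86618, came without H3K9me3 replicate 1, 2 or 3 and changed the summing as well, so they stand beside 72428. With the summing kept, an alternative added after the data were seen, these numbers were 76689, 77294 and 76675 of 151018 to 152916 regions tested, beside 36646. Without 1 library, regions higher in H3K27ac ran from 28315 to 38501, promoters higher in H3K27ac from 11899 to 12381 and those higher in H3K9me3 from 7174 to 10090. Over the other settings these ran from 27405 (DESeq2) to 40779 (no filter), from 10100 (TMM) to 12550 (no filter) and from 5181 (a mean of 20 counts) to 11190 (no filter). The share of regional calls higher in H3K27ac was 44.0%, 51.1% with TMM, 67.0% under the filter at 20 counts, 27.4% with no filter, 35.1% with all 6 libraries separate, at most 30.8% without 1 H3K9me3 library and with the others separate, and 32.0 to 32.6% without 1 and with the summing kept. Replicate numbers did not pair the marks: deviations of libraries with the same number correlated at 0.005 to 0.014. A fit with the replicate number as a block called 72055 regions higher in H3K9me3, close to the 72428 without the block in the same 6 libraries. Several promoter differences near 0 changed sign. With TMM these were Zfp991 (-0.66), Zfp600 (-0.67), Rex2 (-0.31), Dppa3 (-0.55), Pphln1 (-0.58), Nespas (-0.64), Snrpn (-0.29), Zrsr1 (-0.17) and B2m (-0.6). Without 1 library the values ran from -0.04 to 0.14 for Zfp600, from -0.25 to 0.03 for Lefty1, from -0.04 to 0.15 for Nespas and from -0.19 to 0.41 for B2m. With the summing kept, Lefty1 reached 0.01 without H3K9me3 replicate 1, Zfp600 -0.03 and -0.02 without replicates 2 and 3, and B2m -0.2 without replicate 3. The cause was not tested. At the threshold a region of median width is expected to hold 11.5 counts in an H3K9me3 library, so narrow regions near it have a wide counting error.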
